A study of Mus musculus with 12 samples.

Results

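The expression of 9 marker genes of reactive astrocytes, Serpina3n, Steap4, Osmr, Cd109, Clcf1, Emp1, Tm4sf1, Ptx3 and S1pr3, was followed in a cultured astrocyte line under 3 kinds of acidification. They were named by symbol, with earlier results of these data known, and make up 9 of the 21959 genes listed. RNA of C8-D1A, an established mouse astrocyte line, was sequenced in 12 libraries, 3 in each of 4 groups, all collected after 24 h. In the treated groups the incubator held 15% CO2, the medium received 20 mM lactic acid, or its sodium bicarbonate was lowered to 0.2 g/L (called low NaHCO3 here). Control cells stayed at 37 °C under 5% CO2, and the CO2 level of the lactic acid and low NaHCO3 cultures is not given in the labels. No label gives a measured pH, so whether the treatments were matched for it is not known here. Nothing in the labels says that libraries of 1 group are separate cultures, so p-values measure the spread between these libraries, which may be technical.

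Astrocytes exposed to injury, ischemia or inflammatory signals enlarge, raise intermediate filament genes and switch on secreted and membrane proteins, a state called reactive. Serpina3n, Steap4, Osmr and S1pr3 belong to the markers often called pan-reactive, which were raised in mouse astrocytes after both ischemic and inflammatory injury. Clcf1, Cd109, Emp1, Tm4sf1 and Ptx3 belong to the markers called A2-type, which were raised mainly after ischemia. Osmr and Clcf1 are a receptor subunit and a ligand of the interleukin-6 cytokine family, whose receptors share the subunit gp130 and act through STAT3.

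Levels are given as TPM, a unit that corrects for transcript length and expresses each gene as a share of its library. Control replicate 1 stood apart from the other 11 libraries. Its Spearman correlation with them across genes was 0.859 to 0.884, against 0.958 to 0.980 among the others. It also held more RNA of genes that mark brain cell types. The summed level of 10 astrocyte markers was 2100 TPM in control 1 and 114 to 178 TPM in the other 11 libraries, with 9 of the 10 higher in control 1. For 10 neuron markers the sum was 2848 against 342 to 531 TPM, for 10 oligodendrocyte markers 1129 against 113 to 222 TPM, for 10 microglia markers 268 against 62.8 to 95.3 TPM, and for 10 endothelial and mural markers 125 against 16.1 to 20.6 TPM. Most of the neuron sum outside control 1 was Nefm, at 332 to 518 TPM there and 328 TPM in control 1. Of the 10 neuron markers 7 were under 1 TPM in all 11. Outside control 1, 4 of the microglia and 2 of the endothelial and mural markers were at 0 in every library. The astrocyte label was met in part there. Of the 10 astrocyte markers S100b lay at 33.5 to 49.8 TPM, Glul at 43.7 to 74.9 TPM and Sox9 at 31.2 to 52.5 TPM in all 11 libraries. Another 6 were under 1 TPM in all 11. Gfap, an intermediate filament gene that is also among the pan-reactive markers, lay between 0.126 and 1.19 TPM, against 64.3 TPM in control 1. Each member is therefore given with and without control 1.

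The members split into 4 that were transcribed at 1 TPM or more in all 12 libraries and 5 that stayed under 1 TPM outside control 1. Of the pan-reactive members 1 of 4 was in the expressed set, Serpina3n, and of the A2-type members 3 of 5, Emp1, Clcf1 and Cd109. Over the 11 libraries without control 1, Emp1 averaged 341 TPM and ranked 354 among all 21959 genes listed. Cd109 averaged 150.2 TPM at rank 1020, Clcf1 138.5 TPM at rank 1145, and Serpina3n 31.1 TPM at rank 5264. The order was not the same in every group: in low NaHCO3 Clcf1 averaged 276 TPM and Cd109 138 TPM. Low NaHCO3 gave the widest differences: Emp1 and Clcf1 were higher and Serpina3n lower than in every other group. Cd109 was higher under lactic acid, and no member passed the threshold under 15% CO2 with all 12 libraries or without control 1.

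**Figure D1:**
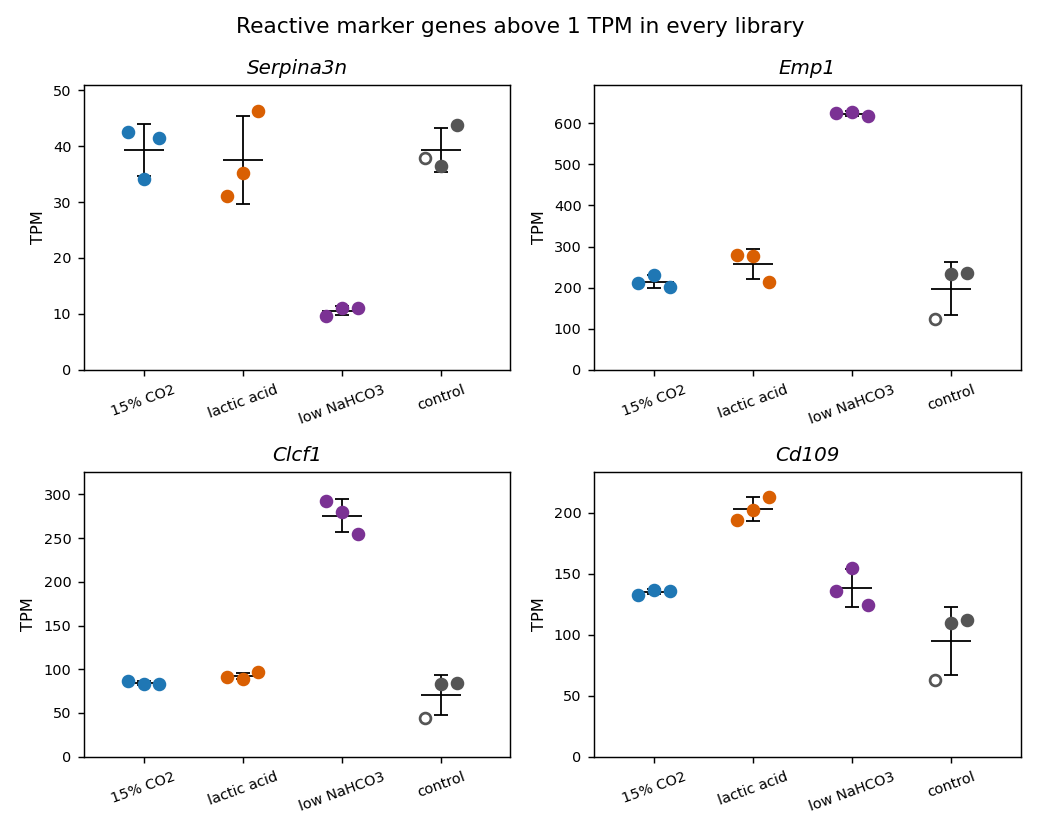
TPM of the 4 expressed members in each library (points), with the mean and SD of 3 libraries per group (bars); the open point is control 1. Low NaHCO3 libraries held Serpina3n at 9.65 to 11.1 TPM and Emp1 at 617 to 628 TPM, apart from all other libraries, while Cd109 was highest in lactic acid, at 194 to 213 TPM.

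Tests were made with limma on log2(TPM + 1) over the genes with at least 1 TPM in all 3 libraries of some group, with Benjamini-Hochberg adjustment over those genes and a threshold of 0.05. A gene past it is said to be called. Of 11996 genes tested, 1.41% passed for 15% CO2 against control, and none of the 4 tested members did, with 1, Cd109, at an unadjusted p under 0.05. For lactic acid against control 4.4% passed, and 1 of the 4 members did. For low NaHCO3 against control 56.2% passed, and all 4 members did, 3 of them upward (20.5% of all genes) and 1 downward (35.8%). Against so large a share the count of calls says little about the members, and the sizes of the changes are given by gene. The 3 comparisons share the control libraries. Without control 1, of 12023 genes tested, the shares were 7.62%, 16.6% and 64.6% (23.1% upward and 41.5% downward for low NaHCO3), and the members called were again 0, 1 and 4. A test for any difference among the 4 groups passed for 55.2% of genes, or 75.4% without control 1, and for all 4 members with and without it. Because these are bulk shares of a library, fewer cells with a transcript and less of it per cell cannot be told apart.

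Emp1 (ENSMUSG00000030208, chromosome 6) encodes a small membrane protein of the epithelial membrane protein and PMP22 family and was the most abundant member. It measured 623, 628 and 617 TPM in the 3 low NaHCO3 libraries, against 124, 234 and 235 TPM in the controls. All 3 lay above every other library of the series, of which the next held 278 TPM under lactic acid. The mean was 623 ± 5.66 TPM in low NaHCO3 and 198 ± 63.8 TPM in control (SD, n = 3 each), a 3.15-fold difference. The fitted log2 change, higher than that of 98.7% of genes tested, was 1.71 ± 0.21 (SE, limma adjusted p = 6.64e-05), and 1.40 ± 0.11 (adjusted p = 1.19e-06) without control 1, whose level was 0.529 of the mean of the other controls. Under lactic acid Emp1 was 278, 278 and 215 TPM, and under 15% CO2 212, 231 and 202 TPM. Both groups overlapped the controls when all 3 were counted, with log2 changes of 0.42 ± 0.21 (limma adjusted p = 0.247, 95% interval -0.04 to 0.89) for lactic acid and 0.18 ± 0.21 (adjusted p = 0.691) for 15% CO2. Without control 1 the changes were 0.12 ± 0.11 (adjusted p = 0.459) for lactic acid and -0.13 ± 0.11 (adjusted p = 0.479) for 15% CO2, whose libraries then all lay below the controls. Lactic acid 3, the lowest of its group for Emp1, also held 278249 TPM of mitochondrially encoded mRNA, against 159269 and 164300 TPM in the other lactic acid libraries. With control 1 out and mitochondrial and the 10 most abundant genes left out of the scaling, the lactic acid change was 0.20 (adjusted p = 0.0497), and with control 1 and lactic acid 3 both out it was 0.24 (adjusted p = 0.0366).

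Clcf1 (ENSMUSG00000040663, chromosome 19) encodes cardiotrophin-like cytokine factor 1, a ligand of the interleukin-6 family that acts through the ciliary neurotrophic factor receptor. Its level was 293, 279 and 255 TPM in low NaHCO3, against 43.9, 82.6 and 84.3 TPM in control. The groups did not overlap, and the libraries of the other treatments stayed at 82.5 to 96.4 TPM. Low NaHCO3 averaged 276 ± 19.2 TPM and control 70.2 ± 22.8 TPM (SD, n = 3 each), a 3.92-fold difference that was 3.30-fold without control 1. The log2 change, above that of 99.2% of genes tested, was 2.01 ± 0.20 (limma adjusted p = 1.33e-05), and 1.71 ± 0.07 (adjusted p = 3.21e-08) without control 1. Lactic acid libraries held 91.3, 88.8 and 96.4 TPM and 15% CO2 libraries 86.9, 83.7 and 82.5 TPM. Against control, the log2 difference for lactic acid was 0.45 ± 0.20 (limma adjusted p = 0.203), or 0.14 ± 0.07 (adjusted p = 0.189) without control 1. The value for 15% CO2 was 0.32 ± 0.20 (limma adjusted p = 0.453), or 0.02 ± 0.07 (adjusted p = 0.912) without control 1.

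Serpina3n (ENSMUSG00000021091, chromosome 12) encodes a secreted inhibitor of serine proteases and is among the most used markers of reactive astrocytes. It was the member that fell. Low NaHCO3 libraries held 9.65, 11.02 and 11.1 TPM, against 37.8, 36.4 and 43.8 TPM in control. The groups did not overlap, and control 1, at 0.943 of the mean of the other controls, did not stand apart for this gene. The mean was 10.6 ± 0.821 TPM in low NaHCO3 and 39.4 ± 3.93 TPM in control (SD, n = 3 each), so that control was 3.71-fold higher. The log2 change, with 3.23% of genes tested below it, was -1.80 ± 0.15 (limma adjusted p = 4.20e-06), and -1.82 ± 0.16 (adjusted p = 2.63e-06) without control 1. Under lactic acid the gene measured 31.1, 35.3 and 46.2 TPM, a change of -0.08 (limma adjusted p = 0.750), and under 15% CO2 42.5, 34.1 and 41.5 TPM, a change of -0.0032 (adjusted p = 0.994). Both groups overlapped control. Reads of the near-identical Serpina3 genes beside it on chromosome 12 could have been divided with it: 9 others are listed, and the highest, Serpina3m, reached 2.61 TPM outside control 1.

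Cd109 (ENSMUSG00000046186, chromosome 9) encodes a glycosylphosphatidylinositol-anchored protein of the alpha-2-macroglobulin family that binds transforming growth factor beta and limits its signalling. It followed a different order, highest under lactic acid. Lactic acid libraries held 194, 202 and 213 TPM, against 62.7, 110.0 and 113 TPM in control, with no overlap. The mean was 203 ± 9.54 TPM in lactic acid and 95.04 ± 28.1 TPM in control (SD, n = 3 each), 2.14-fold higher, or 1.83-fold without control 1, which was at 0.563 of the other controls. The log2 change, above that of 99.8% of genes tested, was 1.13 ± 0.19 (limma adjusted p = 0.0126), and 0.86 ± 0.09 (adjusted p = 0.000541) without control 1. It lost its call in a fit of lactic acid and control alone (adjusted p = 0.218) and without lactic acid 3 (1.10, adjusted p = 0.05005). Low NaHCO3 libraries held 136, 155 and 124 TPM, also above every control, with a change of 0.58 ± 0.19 (limma adjusted p = 0.0207) that was 0.31 ± 0.09 (adjusted p = 0.00903) without control 1. That call was lost without low NaHCO3 1 (adjusted p = 0.0504), without low NaHCO3 2 (adjusted p = 0.0757), without controls 1 and 2 (adjusted p = 0.0614), in a fit of those groups alone (adjusted p = 0.0898) and, with control 1 out, with mitochondrial and the 10 most abundant genes left out (0.23, adjusted p = 0.0835). Under 15% CO2 the libraries held 133, 137 and 136 TPM, again above every control. The change there was 0.55 ± 0.19 (limma adjusted p = 0.186, 95% interval 0.14 to 0.96), and 0.28 ± 0.09 (adjusted p = 0.0718, 95% interval 0.09 to 0.47) without control 1. It was called when control 1 was left out together with lactic acid 3 (adjusted p = 0.0372), low NaHCO3 2 (adjusted p = 0.0373) or low NaHCO3 3 (adjusted p = 0.0407). In the GENCODE M21 annotation an antisense gene that the table does not list overlaps Cd109, and opposite-strand genes also overlap Clcf1, Ptx3 and S1pr3. Without a stated use of strand their reads cannot be told from those of the members. A protein-coding gene on the same strand, AC109138.7, also overlaps Clcf1 and is listed at 0 TPM, and how reads shared with it were assigned is not known.

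**Figure D2:**
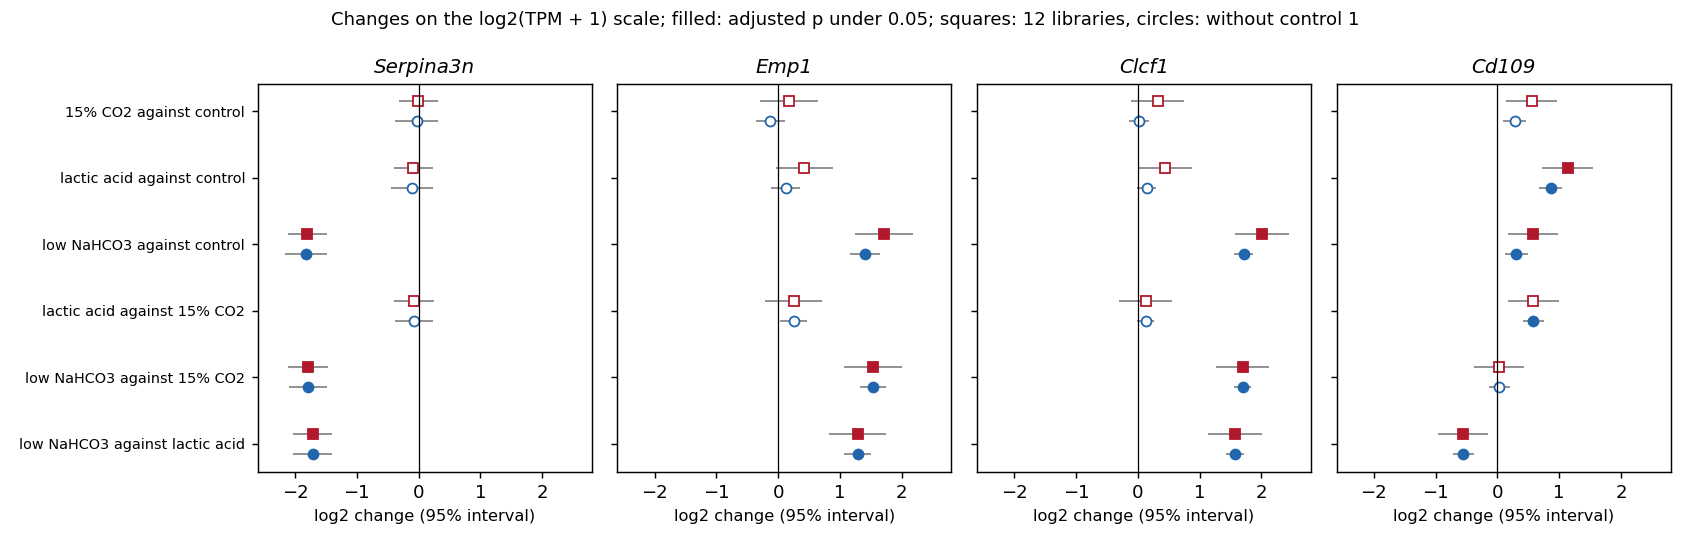
log2 change of the 4 expressed members in 6 comparisons on the log2(TPM + 1) scale (x axis; bars are 95% intervals), from all 12 libraries (squares) and without control 1 (circles), filled where the adjusted p is under 0.05. Serpina3n, Emp1 and Clcf1 moved past the threshold in every comparison that holds low NaHCO3 and in no other, and Cd109 was called in lactic acid and low NaHCO3 against control, in low NaHCO3 against lactic acid and, without control 1, in lactic acid against 15% CO2.

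The treatments were also set against each other, which does not use the controls other than for the shared spread. Low NaHCO3 against 15% CO2 called 52.7% of genes (69.9% without control 1) and 3 of the 4 members. Serpina3n fell by 1.79 on the log2 scale (limma adjusted p = 4.67e-06), Emp1 rose by 1.53 (adjusted p = 0.000145) and Clcf1 by 1.69 (adjusted p = 4.44e-05), while Cd109 differed by 0.03 ± 0.19 (adjusted p = 0.914, 95% interval -0.38 to 0.43). Its sign depended on the scaling: with control 1 left out, it was 0.25 (adjusted p = 0.0105) with median-of-ratios scaling and -0.13 with mitochondrial and the 10 most abundant genes left out. Low NaHCO3 against lactic acid called 50% (68.1% without control 1) and all 4 members. Serpina3n fell by 1.71 (limma adjusted p = 7.10e-06), Emp1 rose by 1.28 (adjusted p = 0.000529) and Clcf1 by 1.57 (adjusted p = 8.82e-05). Cd109 fell by 0.56 relative to lactic acid (adjusted p = 0.0279), a call lost without lactic acid 1, 2 or 3 or low NaHCO3 1 or 3 (adjusted p = 0.0509, 0.0640, 0.0751, 0.0709 and 0.0982), with no filter (adjusted p = 0.0522) and with median-of-ratios scaling (-0.37, adjusted p = 0.122). Without control 1 it stood at adjusted p = 7.24e-05. Lactic acid against 15% CO2 called 0.333% of genes (4.8% without control 1) and no member, with 1, Cd109, at an unadjusted p under 0.05. Cd109 was higher in every lactic acid library than in every 15% CO2 library, with a change of 0.58 ± 0.19 (limma adjusted p = 0.333), which passed at the same size without control 1 (adjusted p = 0.00393). Emp1 differed by 0.25 (adjusted p = 0.901), or adjusted p = 0.175 without control 1. With control 1 out it too was called with median-of-ratios scaling (0.29, adjusted p = 0.0376) and with quantile normalization (adjusted p = 0.0270). It was also called there with mitochondrial and the 10 most abundant genes left out (0.25, adjusted p = 0.0299) and without lactic acid 3 (0.37, adjusted p = 0.00750).

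Outside control 1 the remaining members lay under 1 TPM, and all but Tm4sf1 lay near or at 0. Steap4, a metalloreductase of iron and copper uptake, was listed at 0 in 6 of 12 libraries and at no more than 0.125 TPM outside control 1, where it reached 0.639 TPM. Osmr, the receptor subunit for oncostatin M that pairs with gp130, was at 0 in 9 libraries, at 0.0163 TPM in lactic acid 1 and 0.0180 TPM in control 2, and at 1.73 TPM in control 1. S1pr3, a receptor for sphingosine 1-phosphate, was at 0 in 8 libraries, between 0.0598 and 0.110 TPM in 3 treated ones, and at 2.85 TPM in control 1. Ptx3, a secreted pentraxin of innate immunity, was at 0 in 11 libraries and at 0.301 TPM in control 1. Tm4sf1, a small membrane protein, was detected in all 12 libraries. It measured 0.472, 0.868 and 0.633 TPM under 15% CO2, 0.805, 0.668 and 0.344 TPM under lactic acid and 0.830, 0.721 and 0.577 TPM in low NaHCO3, against 4.07, 0.945 and 0.770 TPM in control. All 9 treated libraries lay below control 2, and 6 of them below control 3 as well. Osmr, S1pr3 and Tm4sf1 thus reached 1 TPM only in control 1, and Steap4 and Ptx3 in no library. The part that the brain cell transcripts of control 1 have in these values was not tested. None of the 5 passed the filter on low values, so the tests above do not include them, and the depth of the libraries is unknown, so a listed 0 sets no upper limit on their level.

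**Figure D3:**
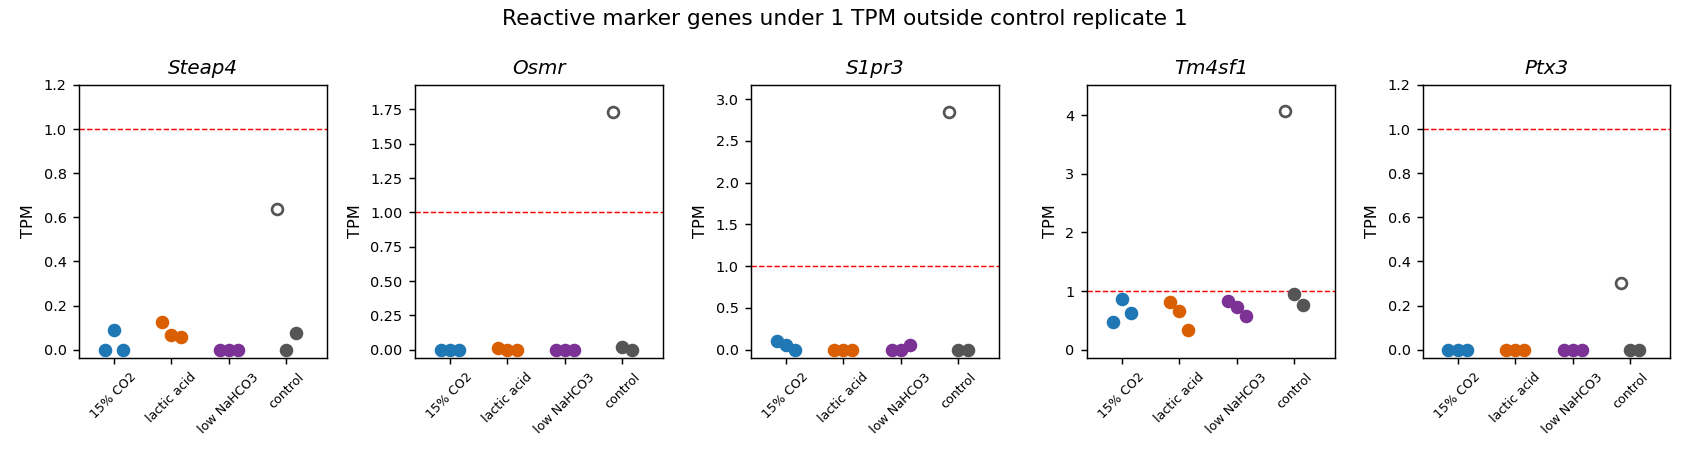
TPM of the 5 low members in each library (points); the dashed line marks 1 TPM and the open point is control 1. Outside control 1 every point lies under the line, and Tm4sf1 alone is above 0 in all libraries.

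Promoter windows of 250 bases before to 50 after the annotated start were taken from RefSeq (GRCm38.p6), which held 8 windows for 7 of the 9 members, all but Clcf1 and Cd109. The windows were searched on both strands for the STAT motif TTCNNNGAA and the AP-1 motif TGANTCA, which stand in 8.3% and 7.81% of all 32851 windows of that length, and for the CRE motif TGACGTCA (1.79%) and the TATA motif TATAAA (13.6%). The members' windows that held the motifs were 2 for STAT, 2 for AP-1, 0 for CRE and 1 for TATA. The window at the first Emp1 start, chr6:135362681-135362980 on the plus strand, held STAT letters at -120 and -22 and AP-1 letters at -145 and -25 from the start, the pair nearest the start overlapping. The window at the other Emp1 start, chr6:135367243-135367542 on the plus strand, held none of the 4 motifs. The Serpina3n window, chr12:104406458-104406757 on the plus strand, held none of the 4 motifs, and that of Steap4, chr5:7960222-7960521 on the plus strand, held STAT letters at -116. The first Emp1 window and those of Serpina3n and Steap4 are shown. They set the member that rose most in TPM beside the member that fell and a pan-reactive member near 0. STAT and AP-1 letters are in capitals, and a match is a description of letters, not a binding site.
Emp1: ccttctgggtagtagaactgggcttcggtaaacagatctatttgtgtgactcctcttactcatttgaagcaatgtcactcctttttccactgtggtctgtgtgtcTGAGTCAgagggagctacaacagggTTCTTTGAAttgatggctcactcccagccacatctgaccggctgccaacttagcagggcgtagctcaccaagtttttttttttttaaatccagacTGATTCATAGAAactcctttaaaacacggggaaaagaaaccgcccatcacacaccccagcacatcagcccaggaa
Serpina3n: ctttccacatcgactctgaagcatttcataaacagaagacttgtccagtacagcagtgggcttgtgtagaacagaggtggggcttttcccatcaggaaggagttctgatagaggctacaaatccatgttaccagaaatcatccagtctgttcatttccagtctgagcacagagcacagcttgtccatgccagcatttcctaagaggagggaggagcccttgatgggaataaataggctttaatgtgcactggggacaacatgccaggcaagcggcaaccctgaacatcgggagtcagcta
Steap4: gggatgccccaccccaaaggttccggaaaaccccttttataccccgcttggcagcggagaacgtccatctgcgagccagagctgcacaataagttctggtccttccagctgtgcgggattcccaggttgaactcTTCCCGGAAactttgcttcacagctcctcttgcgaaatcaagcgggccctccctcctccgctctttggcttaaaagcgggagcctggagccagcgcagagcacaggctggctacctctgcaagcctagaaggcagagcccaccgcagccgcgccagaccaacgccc

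Across the 11 libraries without control 1, the genes whose log2(TPM + 1) ran most like a member were found by Pearson correlation over 9809 genes with a mean of at least 5 TPM. Emp1 ran with Hbegf (0.997), a growth factor of the epidermal growth factor family, and Slc25a25 (0.996), a mitochondrial carrier. Clcf1 ran with Alkbh1 (0.997) and Ckap2 (0.997), the second a spindle protein. Serpina3n ran with Hes1 (0.992), a Notch target and transcriptional repressor, and Evl (0.992), an actin regulator. Cd109 ran with Atf6 (0.978), a sensor of endoplasmic reticulum stress, and Cd68 (0.965), a lysosomal membrane protein. Hbegf averaged 149 TPM in low NaHCO3 against 57.9 TPM in controls 2 and 3, and Cd68 215 TPM under lactic acid against 63.8 TPM in those controls. Among the members, Emp1 and Clcf1 correlated at 0.98, Serpina3n with Emp1 at -0.99 and with Clcf1 at -0.97, and Cd109 with the other 3 at -0.09 to 0.14. These points share 4 groups of libraries and rest largely on the gap between low NaHCO3 and the rest, so they are descriptions only.

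The other markers of the same states were followed in lists. Counts of calls and medians cover only the tested genes of a list. Their counts stand beside the shares of all genes tested, of which 20.5% rose and 35.8% fell in low NaHCO3, 4.4% were called under lactic acid and 1.41% under 15% CO2. Without control 1 these shares were 23.1%, 41.5%, 16.6% and 7.62%, and counts without control 1 are to be set beside them. Of 13 pan-reactive genes 7 were tested. Among the 7, Aspg reached 1 TPM in all 3 libraries of 15% CO2 only, the group where it is highest. The counts in low NaHCO3 leave it out. Of the other 6, 3 rose and 1 fell in low NaHCO3 against control. Their median log2 change was 0.57, or 0.25 without control 1, against -0.19 and -0.18 over all genes tested. Cxcl10, a chemokine induced by interferon, averaged 42.9 TPM in low NaHCO3 and 3.15 TPM in control (log2 change 3.41, limma adjusted p = 4.57e-07), and Vim, the intermediate filament gene vimentin, rose by 0.71 (adjusted p = 0.0216), or by 0.41 (adjusted p = 0.0193) without control 1. Aspg fell by 0.72 (adjusted p = 0.0314), a call lost without control 1 (adjusted p = 0.0547). Under 15% CO2 only Cxcl10 passed among the 7, at 9.72 TPM against 3.15 TPM in control (1.38, adjusted p = 0.00806), and under lactic acid limma called 0, with 2 at an unadjusted p under 0.05. Without control 1, Cp, the ferroxidase ceruloplasmin, also rose under 15% CO2 (1.31, adjusted p = 0.00723), and Cxcl10 under lactic acid (0.69, adjusted p = 0.0432).

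Of 13 A1-type genes, markers of the inflammatory state, 7 were tested. The other 6 did not pass the filter on low values, so the counts do not speak for the list as a whole. In low NaHCO3 5 of the 7 rose and 1 fell, with a median log2 change of 1.19. Gbp2 and Iigp1, interferon-induced GTPases, averaged 52.0 and 16.8 TPM in low NaHCO3, against 3.61 and 1.96 TPM in control (3.60, limma adjusted p = 2.57e-06, and 2.69, adjusted p = 3.71e-05). H2-T23, a nonclassical histocompatibility gene, rose by 1.49 (adjusted p = 0.00352). Under 15% CO2 1 of the 7 passed, Iigp1 (1.59, adjusted p = 0.0291), and under lactic acid 0, with 2 at an unadjusted p under 0.05. Without control 1 the counts upward were 4 under 15% CO2, 2 under lactic acid and 5 in low NaHCO3, with none downward. Iigp1 and Serping1 entered the tests through treated groups only. Iigp1 reached 1 TPM in all 3 libraries of each treatment but not of control, and Serping1 in those of 15% CO2 and lactic acid. Of the 5 genes that reached it in every group, 4 rose and 1 fell in low NaHCO3, and 0 passed under the other treatments. Without control 1, 2 of the 5 rose under 15% CO2, 2 under lactic acid and 4 in low NaHCO3.

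Of 13 A2-type genes, which include 5 members, 6 were tested. In low NaHCO3 4 rose and 1 fell, with a median log2 change of 0.47. Beside Emp1, Clcf1 and Cd109 the gene that rose was Stat3, the transcription factor of the pathway (0.36, limma adjusted p = 0.00173), and Sphk1, which makes sphingosine 1-phosphate, fell by 0.81 (adjusted p = 0.00349). Under lactic acid Cd109 alone passed, and under 15% CO2 limma called 0, with 2 at an unadjusted p under 0.05. Without control 1 Stat3 also passed under lactic acid (0.24, adjusted p = 0.0427) and 15% CO2 (0.33, adjusted p = 0.0206).

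Clcf1 and Osmr were read in a list of 24 genes of interleukin-6 family signalling, of which 19 were tested. Among the 19, Il6 reached 1 TPM in all 3 libraries of low NaHCO3 only, the group where it is highest, and is not counted here. Of the other 18, which reached it in all 12 libraries, 7 rose and 4 fell in low NaHCO3, with a median log2 change of -0.10, or -0.16 without control 1. Il11, a ligand of the family, averaged 60.9 TPM in low NaHCO3 and 8.16 TPM in control (2.79, limma adjusted p = 1.69e-06), and Junb, a target of the pathway, 86.0 and 44.3 TPM (0.95, adjusted p = 0.000184). Cntfr, the receptor of Clcf1, averaged 1.78 TPM in low NaHCO3 and 15.4 TPM in control (-1.93, adjusted p = 0.0186), or 4.44 TPM in controls 2 and 3 alone (-0.99, adjusted p = 0.00212). Without control 1, 7 of the 18 rose and 7 fell, and Il6ra, the interleukin-6 receptor, fell by 1.05 (adjusted p = 4.90e-06). Under lactic acid Il11 was the gene called (0.90, limma adjusted p = 0.0311), and under 15% CO2 limma called 0 of the 19, with 5 at an unadjusted p under 0.05. Without control 1, 2 of 20 genes tested were called under 15% CO2 and 4 under lactic acid, all upward. These are near the shares of all genes called, 7.62% and 16.6%. Lifr, the leukemia inhibitory factor receptor, was among the 4 (0.80, limma adjusted p = 0.00541).

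S1pr3 was read in a list of 11 genes of sphingosine 1-phosphate signalling, of which 6 were tested. With or without control 1, limma called 0 under 15% CO2, with 0 at an unadjusted p under 0.05, and 0 under lactic acid, with 1. In low NaHCO3 1 of the 6 rose and 2 fell, shares near those of all genes tested (20.5% and 35.8%), with a median log2 change of -0.10. S1pr1, a receptor of the same family, averaged 2.52 TPM in low NaHCO3, against 29.3 TPM in control and 5.42 TPM in controls 2 and 3 (-2.08, limma adjusted p = 0.0349, and -0.87, adjusted p = 0.00196). Sgpl1, which breaks the lipid down, rose by 0.46 (adjusted p = 0.0323), or by 0.23 (adjusted p = 0.0266) without control 1.

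**Figure D4:**
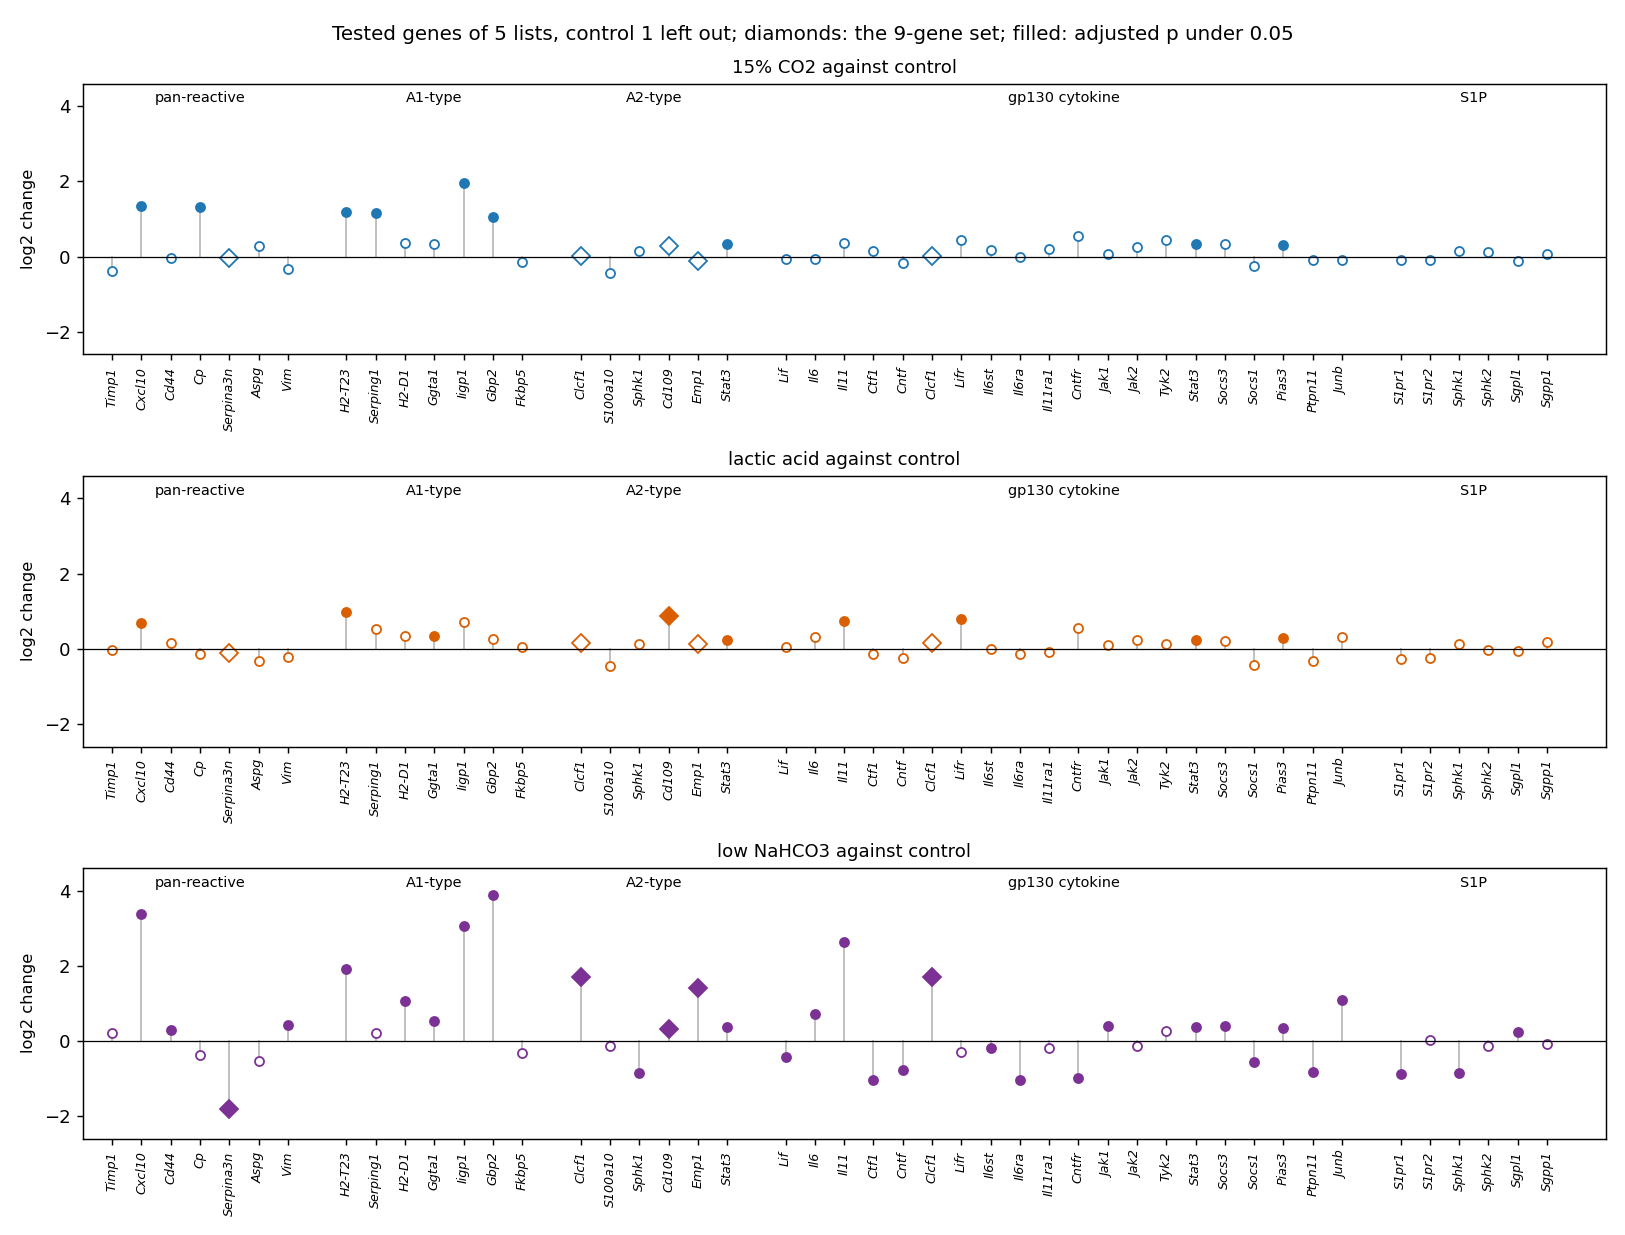
log2 change against control of the tested genes of the 5 lists, with control 1 left out (y axis; 1 panel per treatment); diamonds are genes of the 9-gene set, filled symbols have an adjusted p under 0.05. Low NaHCO3 holds the widest changes in both directions, with Gbp2, Cxcl10 and Iigp1 above 3 and Serpina3n the lowest.

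Low NaHCO3 also stood apart in summed levels of marker and housekeeping transcripts. Oligodendrocyte markers summed to 113 to 118 TPM in low NaHCO3, against 194 to 222 TPM in the other 8 libraries without control 1, and astrocyte markers to 114 to 128 TPM, against 140 to 178 TPM. Microglia markers summed to 62.8 to 72.5 TPM in low NaHCO3, against 73.6 to 95.3 TPM, while the ranges of endothelial and mural markers overlapped and neuron markers lay within the range of those libraries. The part of these sums in the member changes was not tested. Mitochondrially encoded mRNA summed to 104049 to 108557 TPM in low NaHCO3, against 156253 and 163116 TPM in controls 2 and 3, and ribosomal protein mRNA to 109237 to 119853 TPM, against 84757 and 88068 TPM. Over all genes tested, low NaHCO3 against control had a median log2 change of -0.19, and -0.01 with median-of-ratios scaling, so that member changes may be read against a shift of that size. The 4 members were called in the same directions under that scaling.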

How the data were processed

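The deposited table gives TPM for 21959 Ensembl genes in 12 libraries, made by the authors. Per the labels' protocols, RNA was isolated with Trizol, and NEBNext Ultra II was the library kit. Per the submitters' processing notes, reads were processed with fastp 0.22.0 and HISAT2 2.1.0, and GRCm39 was the build. How reads were counted, on which annotation and with what strand setting is not given in the sources used here. Every library's column sums to 1000000, and no counts are listed, so depth is unknown and no counting interval or floor is given. Labels of replicates 2 and 3 write CO3 and CO4 for CO2 and raise reagent numbers by 1; these were taken for copying errors, and the treatment label set the group.

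IDs were matched to symbols in GENCODE M21 (21851 found, 108 not, and 26 repeated a symbol). Values were transformed as log2(TPM + 1), which understates changes of low genes. Genes with at least 1 TPM in 3 libraries of 1 group were tested (for the controls without control 1, in both). limma 3.58.1 in R 4.3.3 fitted 4 group means to all libraries, with 6 two-sided contrasts and Benjamini-Hochberg adjustment over the genes tested. The procedure was checked on simulated data with independent noise of the same size for every gene. No simulated library stood apart as control 1 does, so the check does not cover that.

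The members and lists were chosen with earlier results of these data known. The members are always named. Of each list, up to 3 other genes per comparison are named, those with the largest changes past the threshold, and for each tested member the 2 genes most like it. An item of 1 list is not reported here. The comparisons were refitted with another pseudocount (0.1), no filter or a filter at 5 TPM, median-of-ratios and quantile scaling, leaving out mitochondrial and the 10 most abundant genes, with only the groups compared, with other variance settings, with the replicate number as a block and without each library. The fits without control 1 that also change the scaling or leave out another library were chosen after seeing the data.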

Additional observations from a re-analysis of the deposited data

How the results depend on the processing

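Serpina3n, Emp1 and Clcf1 kept their direction and call in all 3 comparisons of low NaHCO3 under all 36 alternatives. The call of Cd109 did change there, so the count of members called ran from 3 to 4 in each of these comparisons. It also changed in the comparisons without low NaHCO3. A fit of only the groups compared called 0 for lactic acid against control and 1 for lactic acid against 15% CO2. With control 1 left out, median-of-ratios scaling called 2 for lactic acid against 15% CO2, quantile normalization 2 there and 2 against control, and leaving out mitochondrial and the 10 most abundant genes 2 and 2. Leaving out single libraries, or control 1 with another, gave 0 to 1 calls for 15% CO2 against control (Cd109), 0 to 2 for lactic acid against control and 0 to 2 for lactic acid against 15% CO2. Uncalled changes near 0 turned sign. For Serpina3n in 15% CO2 against control these were 0.013 (quantile), 0.058 (mitochondrial and abundant genes out) and 0.045 (the same without control 1), with -0.16 to 0.10 over left-out libraries. For Cd109 in low NaHCO3 against 15% CO2 they were -0.082 (quantile), -0.13 (mitochondrial and abundant genes out), and -0.083 and -0.13 for the same settings without control 1, with -0.056 to 0.10 over left-out libraries. Without control 1, Clcf1 in 15% CO2 against control was -0.019 with median-of-ratios scaling (-0.0054 to 0.48 over left-out libraries), and Emp1 -0.16 with median-of-ratios, -0.0060 with quantile and -0.053 with mitochondrial and abundant genes out (-0.18 to 0.33). Serpina3n over left-out libraries ran from -0.26 to 0.040 in lactic acid against control and from -0.24 to 0.043 in lactic acid against 15% CO2. The cause of these shifts was not tested. Of 15 same-numbered pairs of libraries 4 had deviations correlated over 0.1, against 2 of 30 pairs with unlike numbers. The highest were 0.49, between lactic acid 3 and 15% CO2 3, and 0.39, between lactic acid 1 and 15% CO2 2. Deviations within a group sum to 0, and with control 1 left out those of controls 2 and 3 mirror each other. The pairs are therefore not independent, and whether replicate numbers pair the libraries is not settled. A replicate block changed no member call (Cd109 in lactic acid against control 1.13, limma adjusted p = 0.0231). In the fit with no filter all 9 members were tested and none of the 5 low ones was called. Unknown depth limits what can be said of the low members.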
